A study of Rattus norvegicus with 144 samples.

Results

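S100a8 and S100a9 encode the subunits of calprotectin, and their RNA was followed in the blood of rats given acetaminophen. The genes were found by their symbols in the array annotation, and each is represented by 1 probe (probe 21965 for S100a8, probe 10644 for S100a9), which makes 2 of the 9653 genes with a symbol on the array. Both passed the filter on missing values that left 14678 features for testing, 8354 of them named genes. The pair was chosen by these same measured values, the log2 ratios per rat over all 12 groups, so their levels and differences are given as a description, with no test.

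S100a8 and S100a9 proteins pair to form calprotectin, a calcium- and zinc-binding complex that fills much of the cytosol of neutrophils and is also made by monocytes. Activated or dying cells release it, and outside the cell it binds Toll-like receptor 4 and the receptor for advanced glycation end products and withholds metal ions from microbes. In blood its RNA comes mainly from neutrophils and monocytes, and calprotectin protein is measured in the clinic as a marker of inflammation.

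The animals were male F344/N rats, 10 to 12 weeks old, that received 0, 150, 1500 or 2000 mg/kg acetaminophen by gavage, split into 2 portions and carried in 0.5% ethyl cellulose. Rats given 0 mg/kg had the carrier alone and are called vehicle rats. Blood RNA was taken 3, 6 or 24 h later, which gives 12 groups of 6 rats, 72 rats in all. RNA of each rat went onto 2 arrays in opposite dyes, 144 arrays in all, beside a pool of RNA from 6 vehicle rats killed at the same time. All groups share strain, sex, carrier and this kind of reference, and nothing in the labels says that any animals were pooled other than for the reference.

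Every level below is a log2 ratio of rat over pool, the mean of a rat's 2 arrays. No source used here gives the base of the deposited logarithm or the direction of the ratio. Base 10 and Cy5 over Cy3 are likely, because the numbers have the format of a scanner's log ratio. If the direction were the opposite, every size would stay and every "higher" would read "lower". If the values had been deposited as log2, every log2 difference and standard error would be 3.32 times smaller, and the 5.54-fold mean difference of S100a9 at 24 h and 1500 mg/kg, given below, would be 1.67-fold. Each time has its own pool, so a level at 24 h and a level at 3 h are ratios to different references. The sample is whole blood RNA, in which more cells of a type and more RNA per cell cannot be told apart. Ratios to a blood pool do not show how strongly a gene is expressed, so the labelled tissue could not be checked by the presence of its markers.

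Of the pair, only S100a9 has an entry in the RefSeq promoter table. The 250 bases before its start are shown because both genes are described together and this is the regulatory sequence at hand. In GRCr8 they lie at chr2:178490623-178490872 on the minus strand.
S100a9 promoter: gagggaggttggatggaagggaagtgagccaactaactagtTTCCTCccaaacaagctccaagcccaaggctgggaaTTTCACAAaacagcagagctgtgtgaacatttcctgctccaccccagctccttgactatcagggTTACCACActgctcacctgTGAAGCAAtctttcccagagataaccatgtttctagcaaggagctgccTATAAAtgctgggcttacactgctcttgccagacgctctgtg
Capitals mark matches to motifs searched on both strands. The TATA box letters TATAAA begin 42 bases before the start, and 12.9% of 33469 promoters of the same length hold them. Letters of the C/EBP type, TGNNGNAA, match at 90 bases before the start and, on the opposite strand, at 109 bases, and 41.7% of promoters hold them. The related TTNNGNAA matches on the opposite strand at 173 bases, and 37.2% of promoters hold it. The core GAGGAA of PU.1-type sites, found in 23.3% of promoters, matches on the opposite strand at 209 bases. The NF-kappaB consensus, found in 6.33% of promoters, does not occur in this window. These matches describe letters and nothing about binding.

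At 24 h both subunits were far higher in rats given 1500 or 2000 mg/kg than in vehicle rats, and the rats of a dose differed widely from each other. S100a8 in vehicle rats had a lowest, median and highest ratio of -0.13, 0.15 and 0.64, against 0.22, 1.75 and 4.36 at 1500 mg/kg and 0.66, 1.22 and 3.55 at 2000 mg/kg. S100a9 ran from -0.58 over a median of -0.26 to 0.72 in vehicle rats, from 0.48 over 2.08 to 4.36 at 1500 mg/kg and from 0.63 over 1.03 to 3.34 at 2000 mg/kg. For S100a8 the 2000 mg/kg rats all lay above the vehicle range, and at 1500 mg/kg 5 of 6 did. For S100a9 5 of 6 rats at 1500 mg/kg and 4 of 6 at 2000 mg/kg lay above the highest vehicle rat. Every rat of both doses lay above the vehicle mean for both genes.

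The mean difference from vehicle at 24 h and 1500 mg/kg was 1.99 for S100a8 (SE 0.72 from the spread of both groups, n = 6 and 6), a 3.98-fold higher ratio. For S100a9 it was 2.47 (SE 0.74), or 5.54-fold. At 2000 mg/kg the differences were 1.48 for S100a8 (SE 0.47, 2.79-fold) and 1.74 for S100a9 (SE 0.51, 3.34-fold). Among 8354 named genes ordered by their difference at 1500 mg/kg, S100a9 stood at place 2 from the top and S100a8 at place 3, behind Serpinb1a, an inhibitor of neutrophil serine proteases. At 2000 mg/kg S100a9 stood at place 3 and S100a8 at place 6. Of all features tested, 0.307% had every 2000 mg/kg rat above every vehicle rat, S100a8 among them, and 0.225% had it at 1500 mg/kg, S100a8 and S100a9 not among them.

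**Figure D1:**
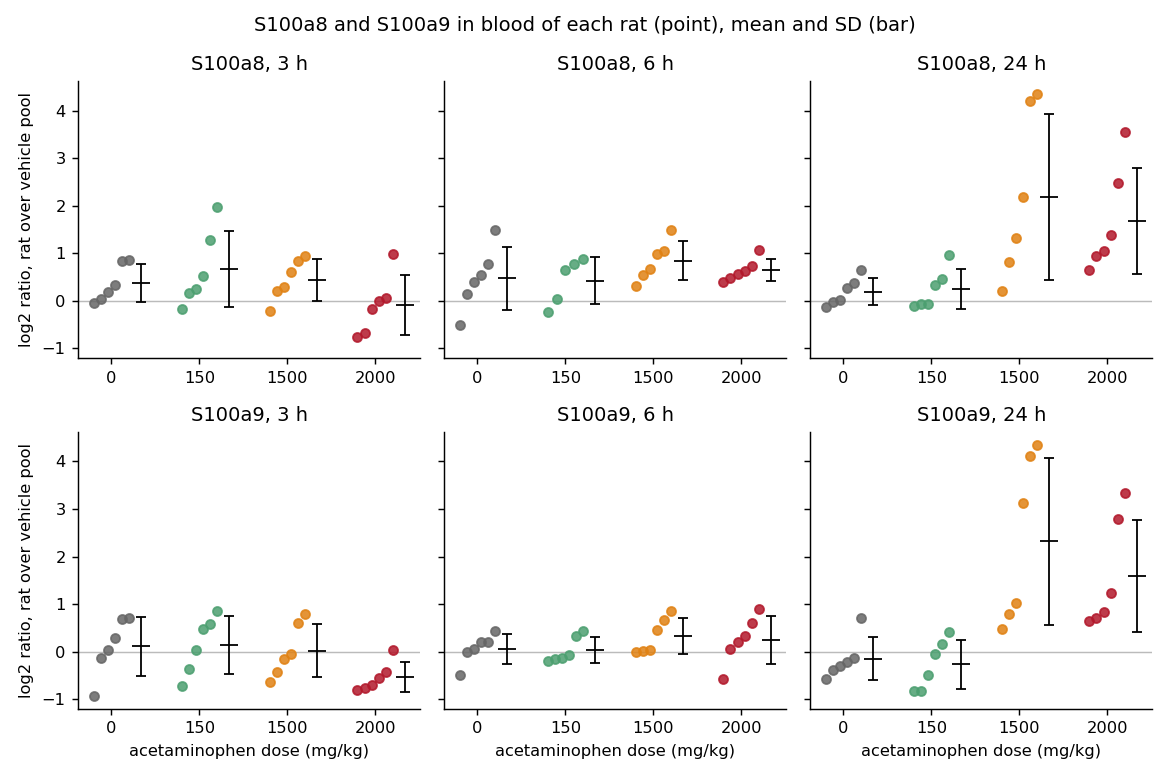
Log2 ratio of rat over same-time vehicle pool (vertical axis) for S100a8 (upper row) and S100a9 (lower row) at 3, 6 and 24 h, by dose in mg/kg. Points are rats and the bars are mean ± SD of up to 6 rats; the 1500 and 2000 mg/kg groups at 24 h reach 4.36 and 3.55 for S100a8, while no rat of any other group passes 1.97.

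Within a high dose group the rats were spread over a range that few genes matched. At 1500 mg/kg the S100a9 ratios were 0.48 in rat 3046, 0.79 in rat 2486, 1.03 in rat 0184, 3.13 in rat 6173, 4.12 in rat 0861 and 4.36 in rat 8385. The rat with the highest S100a9 stood 22.8-fold above the vehicle mean and the lowest 1.55-fold. S100a8 in the same rats was 0.22, 1.32, 0.82, 2.19, 4.21 and 4.36, which spans 18.0-fold down to 1.02-fold of the vehicle mean. The same 3 rats were the highest for both subunits. In the ordering of named genes by SD within the group, S100a9 came first and S100a8 came next.

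At 2000 mg/kg the spread was narrower and had the same form. S100a9 was 0.63 in rat 9999, 0.71 in rat 2342, 0.84 in rat 5421, 1.23 in rat 7404, 2.78 in rat 5402 and 3.34 in rat 1987. S100a8 in these rats was 1.05, 0.95, 0.66, 1.38, 2.47 and 3.55. Rats 5402 and 1987 lay apart from the other 4 for both genes, and the highest rat stood 11.3-fold (S100a9) and 10.2-fold (S100a8) above the vehicle mean. The SDs of 1.17 and 1.11 placed S100a9 at 4 and S100a8 at 7 among named genes in this group.

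The higher of these doses did not give the higher mean. The 2000 mg/kg mean minus the 1500 mg/kg mean was -0.51 for S100a8 (SE 0.85) and -0.73 for S100a9 (SE 0.86), each smaller than its standard error, and the ranges of both doses overlapped over most of their length.

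At 150 mg/kg the 24 h ratios of both genes lay close to vehicle. S100a8 ran from -0.11 over 0.13 to 0.96 and S100a9 from -0.83 over -0.27 to 0.40. The means differed from vehicle by 0.06 (SE 0.21) and -0.12 (SE 0.28). At this dose no feature on the array passed limma's adjusted threshold at 3, 6 or 24 h (616, 693 and 399 features had an unadjusted p under 0.05), also when arrays were weighted by quality.

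At 3 h the 2000 mg/kg group was the lowest for both subunits. S100a9 ran from -0.94 over 0.16 to 0.71 in vehicle rats and from -0.80 over -0.63 to 0.03 at 2000 mg/kg. None of the 6 rats reached the vehicle mean, and none fell below the lowest vehicle rat, so the ranges overlapped. The difference was -0.64 (SE 0.28), a ratio of 0.64 to vehicle. S100a8 ran from -0.05 over 0.26 to 0.87 in vehicle rats and from -0.75 over -0.08 to 0.99 at 2000 mg/kg, a difference of -0.46 (SE 0.31), with 3 of 6 rats below and 1 above the vehicle range.

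The other doses at 3 h stayed near vehicle. S100a9 had medians of 0.25 at 150 mg/kg and -0.10 at 1500 mg/kg, with differences of 0.03 (SE 0.35) and -0.09 (SE 0.34). S100a8 had medians of 0.39 and 0.45, with differences of 0.30 (SE 0.37) and 0.07 (SE 0.24). One rat at 150 mg/kg had the highest S100a8 outside the 24 h high dose groups, 1.97. Taken from the arrays with the rat in Cy3 alone, these S100a8 differences were -0.07 and -0.23, and from the Cy5 arrays alone 0.67 and 0.37, so their direction turns with the dye.

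At 6 h every dose overlapped vehicle for both genes. S100a8 ran from -0.51 over 0.47 to 1.50 in vehicle rats, from 0.32 over 0.84 to 1.49 at 1500 mg/kg and from 0.41 over 0.60 to 1.07 at 2000 mg/kg. In 5 of 6 rats of each of these doses it lay above the vehicle mean, with differences of 0.37 (SE 0.32) and 0.17 (SE 0.29). S100a9 ran from -0.50 over 0.13 to 0.42 in vehicle rats, from -0.02 over 0.24 to 0.86 at 1500 mg/kg and from -0.58 over 0.26 to 0.90 at 2000 mg/kg. Its differences were 0.27 (SE 0.20) and 0.19 (SE 0.24). At 150 mg/kg the differences were -0.05 for S100a8 (SE 0.35, n = 5 because 1 rat lacked a value) and -0.03 for S100a9 (SE 0.17).

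Ordered by mean, the S100a8 doses ran 2000, 0, 1500, 150 mg/kg from lowest to highest at 3 h, 150, 0, 2000, 1500 at 6 h and 0, 150, 2000, 1500 at 24 h. The S100a9 order was 2000, 1500, 0, 150 at 3 h, 150, 0, 2000, 1500 at 6 h and 150, 0, 2000, 1500 at 24 h. The ranges of every pair of neighbours in these orders overlapped. Neighbouring means lay more than 1 pooled SD apart only at the step up to 2000 mg/kg at 24 h (1.70 SD for S100a8, 1.96 SD for S100a9) and between 2000 and 1500 mg/kg for S100a9 at 3 h (1.23 SD).

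The mean S100a8 ratio was above the mean S100a9 ratio in every group except 1500 mg/kg at 24 h. S100a8 minus S100a9 averaged 0.26 in vehicle rats at 3 h, 0.41 at 6 h and 0.34 at 24 h, and lay between 0.37 and 0.53 in the dosed groups at 3 h, at 6 h and at 150 mg/kg after 24 h. At 24 h it was -0.13 (SD 0.48, n = 6) at 1500 mg/kg and 0.09 (SD 0.27, n = 6) at 2000 mg/kg. The probes differed in their dye behaviour. The array with the rat in Cy3 gave a higher S100a8 ratio than its Cy5 partner in 65 of 71 rats, by 0.68 on average (SD 0.50). For S100a9 it did so in 63 of 72 rats, by only 0.14 (SD 0.14). Across rats the 2 arrays correlated at r = 0.87 (rho 0.70) for S100a8 and r = 0.99 (rho 0.97) for S100a9. The S100a9 probe was the more repeatable of the pair. A rat's value averages both dye orientations, in which a dye effect that is equal on both arrays cancels.

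The subunits followed each other closely from rat to rat where they were high. Over the 12 rats given 1500 or 2000 mg/kg at 24 h, S100a8 and S100a9 correlated at r = 0.96 (rho 0.88), and at r = 0.92 without the 2 rats farthest from the median. Over the 59 other rats with both values the correlation was 0.48 (rho 0.47, and r = 0.45 without the farthest 2). It was 0.77 (rho 0.72) over the 12 rats of 0 and 150 mg/kg at 24 h, and 0.55 without the farthest 2. The 24 rats at 3 h gave 0.38 (rho 0.37), and 0.22 without the farthest 2. The 23 rats at 6 h gave 0.40 (rho 0.22), and 0.28 without the farthest 2. Both genes of a rat come from the same arrays, which these values share.

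**Figure D2:**
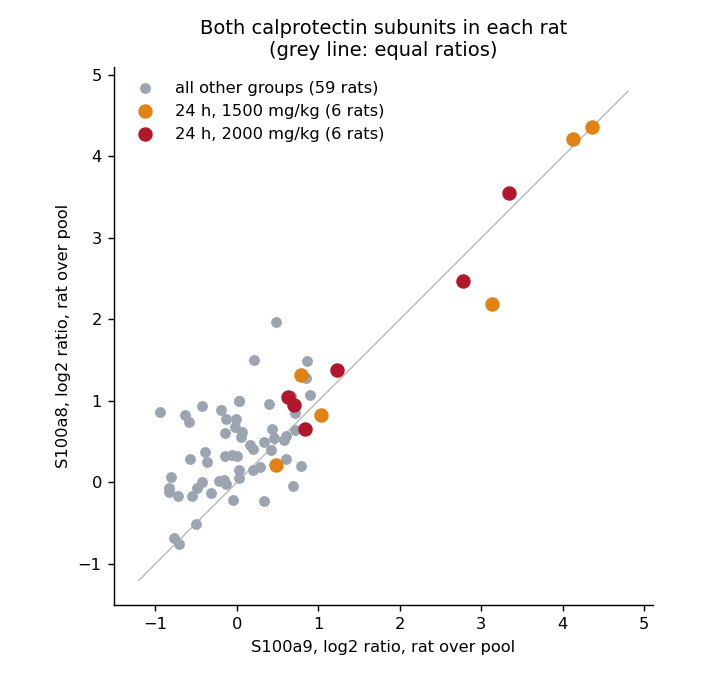
S100a8 against S100a9 in each of 71 rats, both as log2 ratio of rat over pool, with a grey line where they are equal. The 12 rats of the high doses at 24 h run along the line from below 1 to 4.36, and the 59 other rats form a cloud between about -1 and 2, most of it above the line.

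Of 8194 genes with values in at least 66 rats, those most like the mean of S100a8 and S100a9 over the 71 rats were Ceacam4 (r = 0.94), Pglyrp1 (r = 0.93), Serpinb1a (r = 0.90), Aqp9 (r = 0.89), Tf (r = 0.88), Tcn2 (r = 0.87), Anxa1 (r = 0.87) and Dgat2 (r = 0.87). Pglyrp1 is a peptidoglycan recognition protein of neutrophil granules, Anxa1 encodes annexin A1, Aqp9 a water and glycerol channel, Tcn2 the vitamin B12 carrier transcobalamin and Tf transferrin. An r over 0.5 was reached by 117 genes, 1.43% of those compared, and the median r was -0.01. The 12 high dose rats at 24 h weigh heavily on these values. Over the 59 other rats r was 0.74 for Ceacam4, 0.69 for Pglyrp1, 0.66 for Dgat2, 0.65 for Serpinb1a and for Anxa1, and 0.46 for Aqp9.

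The likeness was also present within groups when all groups were pooled. The high dose groups at 24 h weigh heavily here too, with S100a9 SDs of 1.76 and 1.17 against 0.27 to 0.62 in the other groups. Likeness with group means taken off was not computed for these genes without the high dose rats. For S100a8 and S100a9 themselves, such an r was 0.34 over the 59 other rats. With every group's mean taken off, the highest r values were 0.88 for Pglyrp1, 0.88 for Ceacam4, 0.85 for Serpinb1a, 0.83 for Aqp9 and 0.82 for Il1r2, the interleukin-1 decoy receptor. At the other end of the order over all 71 rats, with group means kept, stood Bcas3 (r = -0.73), Pla2g2a (r = -0.71), a secreted phospholipase, and Sh2d2a (r = -0.71), an adaptor of T cells. For these 3 the opposite course lay in the high dose rats at 24 h (r = -0.88, -0.87 and -0.84 over 12 rats), and over the 59 other rats r was -0.01, 0.19 and -0.08.

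**Figure D3:**
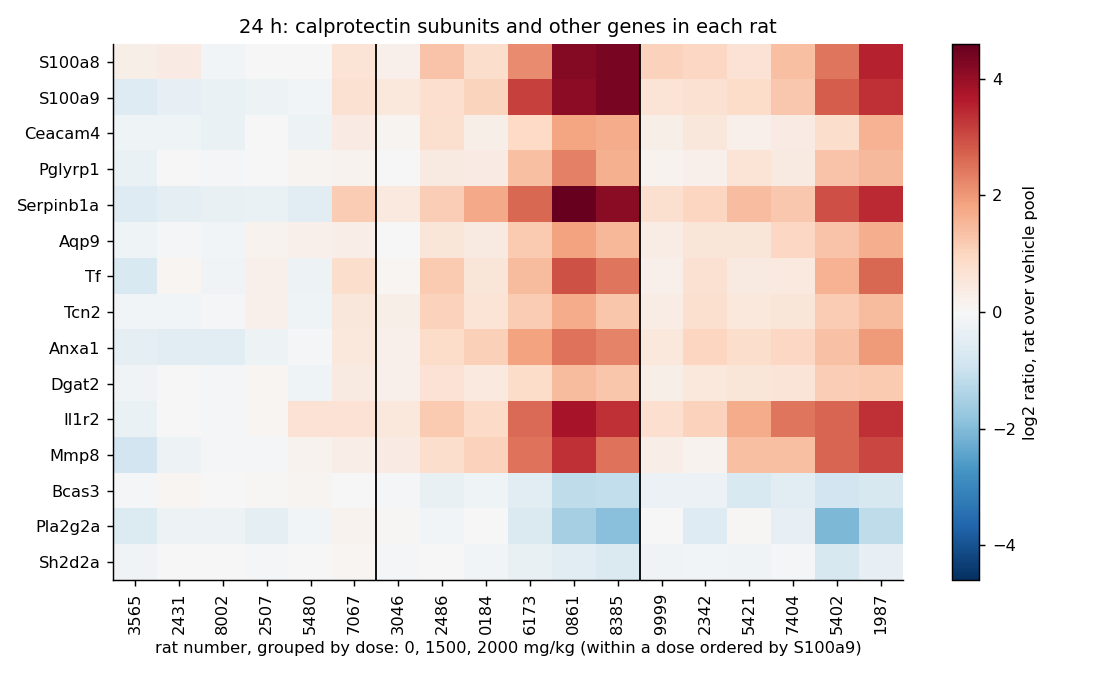
Log2 ratio of rat over pool (colour) at 24 h for S100a8, S100a9, the genes most and least like them, Il1r2 and Mmp8, in the 18 rats of 0, 1500 and 2000 mg/kg, ordered within a dose by S100a9. Red deepens from left to right within each high dose block for most rows, and the rows of Bcas3, Pla2g2a and Sh2d2a turn blue in the rats with the highest S100a9.

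Most of the other S100 family genes tested did not pass at 24 h. S100 genes encode small calcium-binding proteins. Standard errors of tested genes, here and below, come from the limma fit over all 12 groups. Those of S100a8 and S100a9 come from the spread of both groups compared. Of 18 other family members listed, 10 are on the array and 8 passed the filter, while S100a7a and S100b did not. At 24 h 1 of the 8 rose and none fell at either dose, where 0.845% of all features rose and 0.368% fell at 1500 mg/kg, and 0.491% rose and 0.327% fell at 2000 mg/kg. The gene was S100a11, higher by 0.34 at 1500 mg/kg (SE 0.07, limma adjusted p = 0.0018) and by 0.29 at 2000 mg/kg (SE 0.07, limma adjusted p = 0.0207). It lay above all vehicle rats in 5 of 6 and 6 of 6 rats. With arrays weighted by quality S100a11 did not pass (limma adjusted p = 0.113 and 0.101), and at 2000 mg/kg it was also lost without any of 3 single rats. The median difference of the 8 was 0.03 at 1500 mg/kg and 0.05 at 2000 mg/kg, beside -0.01 and -0.00 over all features.

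The genes directly beside the calprotectin pair could not be tested. S100a7a did not pass the filter on missing values, and Pglyrp4, on the S100a9 side, is not among the annotated probes. The nearest tested genes, all on the S100a8 side, did not pass at 24 h. In the RefSeq order of GRCr8 the cluster on chromosome 2 runs S100a13, S100a14, S100a16, S100a3, S100a4, S100a5, S100a6, S100a7a, S100a8 and S100a9. At 1500 mg/kg S100a6 differed by 0.15 (SE 0.10), S100a4 by -0.17 (SE 0.20), S100a3 by -0.12 (SE 0.09) and S100a13 by 0.29 (SE 0.09), with limma adjusted p of 0.727, 0.897, 0.774 and 0.128. S100a1, S100g and S100a10 differed by -0.08, 0.32 and -0.29, with limma adjusted p of 0.919, 0.585 and 0.794. At 2000 mg/kg these 7 genes lay between -0.40 (S100a4) and 0.29 (S100g), beside 1.48 for S100a8 and 1.74 for S100a9.

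At 3 and 6 h other family members fell by the test, while no test is given for S100a8 and S100a9. At 3 h and 2000 mg/kg S100a8 differed from vehicle by -0.46 and S100a9 by -0.64. Of the 8, 2 fell at 1500 mg/kg and 4 at 2000 mg/kg at 3 h, and 1 and 4 at 6 h; none rose. Over all features 1.24% and 8.32% fell at 3 h, and 0.654% and 8.26% at 6 h. The share that rose was 0.0545% and 0.913% at 3 h, and 0.0954% and 0.961% at 6 h. S100a10, the annexin A2 partner, fell by 1.10 and 1.73 at 3 h (limma adjusted p = 0.011 and 6.85e-07) and by 1.23 and 1.55 at 6 h (limma adjusted p = 0.0154 and 6.21e-05). S100a6 fell by 0.58 and 0.57 at 3 h and by 0.47 at 6 h and 2000 mg/kg. S100a4 fell at 2000 mg/kg by 0.72 at 3 h and 0.66 at 6 h, and S100a11 by 0.29 and 0.22; neither passed at 1500 mg/kg. At 6 h both calls were lost with scaled arrays (limma adjusted p = 0.0829 and 0.0766). The median difference of the 8 was -0.13 at both doses at 3 h, and -0.21 and -0.15 at 6 h, beside medians between -0.00 and 0.03 over all features.

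**Figure D4:**
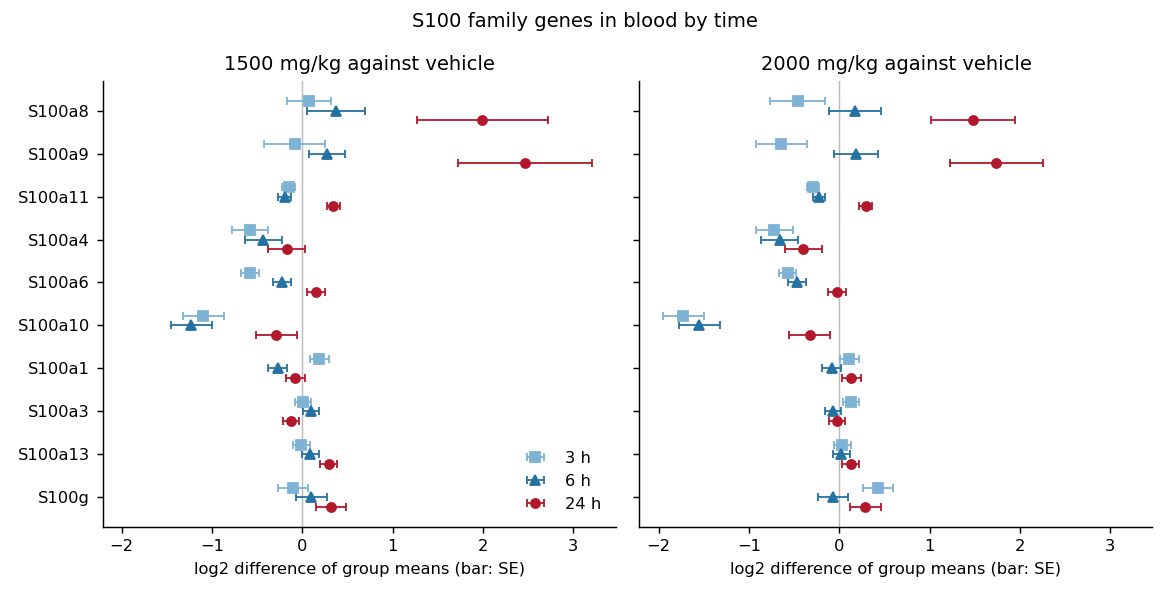
Difference of group means from vehicle on the log2 scale for the 10 measured S100 genes at 3, 6 and 24 h, for 1500 mg/kg (left) and 2000 mg/kg (right). Bars are standard errors, from the spread of both groups for S100a8 and S100a9 and from the limma fit for the others; at 24 h the calprotectin pair lies between 1.48 and 2.47, and no other member passes 0.34.

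Receptors, signalling partners and the phagocyte oxidase that calprotectin is known to feed with arachidonic acid made up a list of 28 genes, of which 16 were tested. At 24 h 1 rose and 1 fell at each dose. At 1500 and 2000 mg/kg 0.845% and 0.491% of all features rose, and 0.368% and 0.327% fell. Il1b, the interleukin-1 beta gene, rose by 0.95 at 1500 mg/kg (limma adjusted p = 0.0353) and by 1.10 at 2000 mg/kg (limma adjusted p = 0.0119). Its ratio in vehicle rats ran from -0.54 over -0.43 to 0.63, and in 2000 mg/kg rats from 0.46 over 1.08 to 1.27, so the ranges overlapped. Cd36, a scavenger receptor that binds fatty acid complexes of calprotectin, fell by 1.08 and 1.01 (limma adjusted p = 7.87e-06 and 5.51e-05). Cd14 (-0.03 and -0.01), Ager (0.00 and -0.02) and Bsg (-0.00 and 0.01), which encode a co-receptor of Toll-like receptor 4, the receptor for advanced glycation end products and basigin, lay near 0. Tlr4, the gene of Toll-like receptor 4 itself, is in the list but not among the annotated probes here. The median difference of the 16 was 0.01 at 1500 mg/kg and -0.01 at 2000 mg/kg, beside -0.01 and -0.00 over all features.

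The Il1b call at 1500 mg/kg was lost on leaving out any of 8 single rats, with array weights (limma adjusted p = 0.151) and with scaled arrays (limma adjusted p = 0.106). At 3 h 2 and 6 of the 16 fell, at 6 h 1 and 5, and none rose. Over all features 1.24% and 8.32% fell at 3 h, and 0.654% and 8.26% at 6 h. Rac2, an oxidase subunit of blood cells, fell in all 4 of these comparisons, by 0.76 and 1.11 at 3 h and by 0.67 and 0.85 at 6 h. At 6 h and 1500 mg/kg its call (limma adjusted p = 0.0472) was lost with zeros kept (limma adjusted p = 0.0563) and with scaled arrays (limma adjusted p = 0.077). Casp1, the protease that matures interleukin-1 beta, fell by 0.68 and 1.22 at 3 h and by 0.81 at 6 h and 2000 mg/kg, the first of which was lost with zeros kept (limma adjusted p = 0.0557). Il1b itself fell by 1.37 at 3 h and 2000 mg/kg (limma adjusted p = 0.000127), when S100a9 was at its lowest.

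Among 38 genes of neutrophil granules and neutrophil maturation 15 were tested, and at 24 h 6 of them rose at each dose and none fell, where 0.845% and 0.491% of all features rose and 0.368% and 0.327% fell. At 1500 mg/kg the largest was Serpinb1a, by 2.62 (SE 0.42, limma adjusted p = 0.000101), with ratios from 0.47 over 2.19 to 4.59 against -0.58 over -0.41 to 1.16 in vehicle rats. Mmp8, the neutrophil collagenase, rose by 1.91 (SE 0.36, limma adjusted p = 0.000711), Il1r2 by 1.88 (SE 0.37, limma adjusted p = 0.00117) and Anxa1 by 1.67 (SE 0.27, limma adjusted p = 0.000101). At 2000 mg/kg these 4 rose by 1.97, 1.64, 1.84 and 1.30. Slpi, a protease inhibitor, and Pglyrp1 were also called at both doses. At 2000 mg/kg the calls of Pglyrp1 and Mmp8 were lost with array weights (limma adjusted p = 0.165 and 0.0523), and 4 genes of the list were called without rat 1987. The list's median difference was 0.23 and 0.20, beside -0.01 and -0.00 over all features. The list was written with earlier results of these rats known, so its count is not independent evidence of a direction. S100a9 at 1500 mg/kg (2.47) lay between Serpinb1a and Mmp8 in size. Its standard error comes from the spread of both groups compared and theirs from the limma fit over 12 groups. The precision of these differences can therefore not be set side by side.

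At 6 h 2 genes of this list were already higher. Il1r2 rose by 1.84 at 1500 mg/kg (limma adjusted p = 0.0237) and by 2.0 at 2000 mg/kg (limma adjusted p = 0.000665), and Serpinb1a rose by 1.30 at 2000 mg/kg (limma adjusted p = 0.0348, and 0.077 with scaled arrays). S100a8 and S100a9 differed by 0.17 and 0.19 in that group. Fcnb, a ficolin of myeloid cells, fell by 1.60 and 1.71 at 3 h and by 1.34 at 6 h and 2000 mg/kg, and Anxa1 fell by 0.95 at 3 h and 2000 mg/kg. In all, 1 and 2 of the 15 fell at 3 h and none rose, while at 6 h 1 rose at 1500 mg/kg, and 2 rose and 1 fell at 2000 mg/kg. Among all features 1.24% and 8.32% fell at 3 h, and 0.654% and 8.26% at 6 h. Those that rose made up 0.0545% and 0.913% at 3 h, and 0.0954% and 0.961% at 6 h.

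Of 15 myeloid transcription regulators 10 were tested. Cebpd, a C/EBP factor induced in inflammation, rose by 1.08 at 24 h and 1500 mg/kg (SE 0.29, limma adjusted p = 0.0412) and was 0.90 higher at 2000 mg/kg without passing (limma adjusted p = 0.155). The call at 1500 mg/kg was lost on leaving out any of 8 single rats, with array weights (limma adjusted p = 0.349) and with scaled arrays (limma adjusted p = 0.111). None of the others passed at 24 h, and with Cebpd no regulator passed at 2000 mg/kg. At 3 h Runx1 fell by 0.88 and 1.25. The first of these calls (limma adjusted p = 0.0476) was lost with values needed in 2 of 6 rats, with zeros kept and with scaled arrays (limma adjusted p = 0.0508, 0.0584 and 0.0526). At 3 h Nr3c1, the glucocorticoid receptor, and Klf4 fell by 1.30 and 0.67 at 2000 mg/kg. At 6 h Runx1 fell by 0.95 at 2000 mg/kg.

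Markers of blood cell types were read beside calprotectin in the same rats. Of 13 neutrophil markers only 5 were measured, and Csf3r, Mpo, Elane, Ltf, Camp, Cd177 and Fpr1 are not among the annotated probes here. The mean ratio of the 5 ran from -0.14 over -0.01 to 0.05 in vehicle rats at 24 h, from 0.06 over 0.32 to 0.61 at 1500 mg/kg and from 0.01 over 0.24 to 0.56 at 2000 mg/kg. The shift of this mean lay in Mmp8 alone, which rose by 1.91 and 1.64. Fcgr3a differed by -0.28 and -0.10, Cxcr1 by 0.05 and -0.04, Cxcr2 by -0.02 and -0.07, and Mmp9 by 0.01 and 0.01, and none of these 4 passed. Cxcr1, Cxcr2 and Mmp9 varied little from rat to rat. At 24 h and 2000 mg/kg their SDs were 0.21, 0.09 and 0.15, beside 1.19 for Mmp8. Whether these probes follow the number of neutrophils was not tested. Over the 12 high dose rats at 24 h the mean of all 5 correlated with the calprotectin mean at r = 0.90 (rho 0.80), and over the 59 other rats at r = 0.38 (rho 0.37). Without Mmp8, a setting chosen after seeing the data, r was -0.45 (rho -0.66) over the 12 rats and -0.10 (rho -0.03) over the 59. The mean of the other 4 markers then ran from -0.05 over 0.01 to 0.05 in vehicle rats, from -0.10 over -0.06 to -0.02 at 1500 mg/kg and from -0.07 over -0.04 to -0.01 at 2000 mg/kg.

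Among the high dose rats at 24 h, lymphocyte markers were lower in those with more calprotectin RNA. The mean of 12 T cell markers ran from -0.36 over -0.00 to 0.13 in vehicle rats at 24 h, from -1.19 over -0.28 to 0.20 at 1500 mg/kg and from -0.99 over -0.21 to 0.25 at 2000 mg/kg. The mean of 5 B cell markers ran from -0.38 over -0.20 to 0.41, from -1.61 over -0.34 to 0.41 and from -1.47 over -0.35 to 0.28. None of these T or B cell markers passed at 24 h. Against calprotectin over the 12 high dose rats r was -0.86 (rho -0.66) for T cells and -0.83 (rho -0.52) for B cells. It was -0.68 for 8 natural killer cell markers, -0.65 for 6 platelet markers and -0.36 for 9 erythroid markers. Over the 59 other rats these 5 lists lay between -0.07 and 0.17.

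The 13 monocyte markers had a mean between -0.14 and 0.15 in vehicle rats at 24 h, between -0.03 and 0.29 at 1500 mg/kg and between -0.06 and 0.28 at 2000 mg/kg. Of them 3 and 2 rose and none fell, where 0.845% and 0.491% of all features rose. Among those that rose were Fcgr1a by 0.95 and 0.90 and Lgals3 by 0.61 and 0.58. At 2000 mg/kg Cd68 differed by -0.44, Csf1r by -0.39 and Klf4 by -0.34, without passing. The median difference of the 13 was 0.10 and -0.01, with 7 and 6 of them above 0. Against calprotectin the r of their mean was -0.22 (rho -0.08) over the 12 high dose rats and 0.33 over the 59 others. At 3 h and 2000 mg/kg, where S100a9 was lowest, 6 of 12 T cell, 4 of 5 B cell, 6 of 13 monocyte and 1 of 5 neutrophil markers fell, and 1 monocyte marker rose, where 8.32% of all features fell and 0.913% rose. The part of the blood's cell makeup in the S100a8 and S100a9 levels was not tested.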

How the data were processed

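Each value was deposited as a ratio per probe and array, read here as log10 of the Cy5 channel over Cy3, already normalised by the authors to judge from the array medians; no source used here states scale, centring or direction. Array medians of the deposited log10 values lay between -0.007541 and 0.008734. Exact zeros (10.92%) were treated as missing. Values were turned to log2 of rat over pool, the sign was changed where the rat was in Cy3, and the 2 arrays of a rat were averaged, both needed. Time, rat number and dye came from the labels, and dose from the deposited key, whose times matched the labels for 72 of 72 rats; 19 key numbers had lost zeros at their ends. On 91 arrays 500 features are absent, and these features were not used, which left 21575. This array design differed with time: of the 12 arrays of a group, 1 to 6 lacked the features at 3 h, 4 to 10 at 6 h and 11 or 12 at 24 h. Of the probes, 12750 have 1 symbol, 5 several and 8820 none. Array pairs of 1 dye orientation and the same time correlated at -0.27 or more; 1 of 2556 pairs across times lay below -0.3, at -0.31.

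Probes of a gene were averaged, a value was needed in 4 of 6 rats of every group, and 1 fit of 12 group means over 72 rats used limma 3.58.1 in R 4.3.3, tested on simulated data, with Benjamini-Hochberg adjustment per comparison and a two-sided threshold of 0.05. The simulated data had the same spread in every group, so they do not cover the wider spread of the high dose groups at 24 h. Both high doses at a time share the vehicle rats. The number of arrays limits the precision. The labels name separate rats, so the p-values measure spread between animals, taken per gene over all 12 groups together. A group with a wider spread does not get a larger standard error. At 24 h Mmp8 had an SD of 1.19 at 2000 mg/kg and 0.41 in vehicle rats. For such genes the limma standard errors and p-values at 24 h can be too small. Genes were named by a rule: S100a8 and S100a9, every measured S100 gene, up to 4 called members of a list per comparison, the 8 most and 3 least like genes, 5 more with group means taken off, and Il1r2. Receptors near 0, Slpi, Pglyrp1 and the marker genes were added after their values were seen. The members and lists were chosen with earlier results of these data known. Summaries were made in Python 3.11.15 (pandas 2.3.3) and plots with matplotlib 3.10.9.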

Additional observations from a re-analysis of the deposited data

Results flagged for a closer look

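S100a9 in vehicle rat 7067 at 24 h had a ratio of 0.72, while the other 5 vehicle rats lay between -0.58 and -0.13. The same rat had the highest S100a8 of its group, 0.64, and its arrays gave S100a9 ratios of 0.67 (rat in Cy5) and 0.76 (rat in Cy3). Serpinb1a in rat 7067 was 1.16, against -0.58 to -0.29 in the other 5. These were the 2 cases among 72 combinations of gene and group checked in which 1 rat stood apart from its group, and chance gives such a gap in about 1 in 20 such combinations. The difference of S100a9 between 2000 mg/kg and vehicle was -0.64 at 3 h, with every dosed rat below the vehicle mean, and 1.74 at 24 h, with every dosed rat above it. The change between the times was 2.38 and was not tested. Each time is measured against its own pool, and more arrays of these groups lacked part of the features at 24 h than at 3 h.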

How the results depend on the processing

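At 24 h the differences of S100a8 and S100a9 at 1500 and 2000 mg/kg kept their direction under every alternative run: Cy3 or Cy5 arrays alone, centring, centring with scaling, zeros kept, array design as a covariate, and the ratio to the pool in place of vehicle. Leaving out each rat in turn gave 1.56 to 2.39 for S100a8 and 2.06 to 2.84 for S100a9 at 1500 mg/kg, and 1.11 to 1.69 and 1.39 to 1.93 at 2000 mg/kg. Each gene has 1 probe, so probes could not be compared. Counts of called list members moved as follows. Regulators at 3 h and 1500 mg/kg (1 called) gave 2 with values in 6 of 6 rats, 0 with 2 of 6, 2 with array weights, 2 with array design, 0 with zeros kept and 0 with scaling. With array weights other S100 genes gave 4 at 6 h and 1500 mg/kg and 0 at both doses at 24 h; partners gave 3 at 6 h and 1 at 24 h at 1500 mg/kg; granule genes gave 2 at 3 h and 7 at 6 h at 1500 mg/kg and 5 at 6 h and 2000 mg/kg; regulators gave 2 and 3 at 6 h and 0 at 24 h and 1500 mg/kg. With zeros kept partners gave 1 at 3 h and 0 at 6 h at 1500 mg/kg. With scaling other S100 genes gave 2 at 6 h and 2000 mg/kg, partners 0 and 3 at 6 h and 1 at 24 h and 1500 mg/kg, and regulators 0 there. The cause of these moves was not tested.

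Over all features, counts that rose and fell were 8 and 182 at 3 h and 1500 mg/kg, 134 and 1221 at 3 h and 2000 mg/kg, 14 and 96 at 6 h and 1500 mg/kg, 141 and 1213 at 6 h and 2000 mg/kg, 124 and 54 at 24 h and 1500 mg/kg, and 72 and 48 at 24 h and 2000 mg/kg. With array weights they were, in the same order, 153 and 900, 1130 and 2337, 326 and 1247, 936 and 2328, 61 and 28, and 34 and 26. At 3 h and 1500 mg/kg they were 12 and 285 with array design, 5 and 123 with zeros kept and 19 and 227 with scaling. At 6 h they were 5 and 38 with zeros kept and 2 and 19 with scaling at 1500 mg/kg, and 73 and 846 with scaling at 2000 mg/kg. Leaving out each rat at 24 h, chosen after seeing the data, gave other S100 counts of 1 to 2 at 1500 mg/kg (2 without vehicle rat 3565) and 0 to 1 at 2000 mg/kg (0 without rat 2431, 3565 or 5421). Partners gave 1 to 2 at 1500 mg/kg, with 1 without rat 0184, 0861, 2486, 6173, 2431, 2507, 3565 or 8002, and 2 throughout at 2000 mg/kg. Granule genes gave 6 throughout at 1500 mg/kg and 4 to 6 at 2000 mg/kg (4 without rat 1987). Regulators gave 0 to 1 at 1500 mg/kg, with 0 without rat 0861, 2486, 6173, 8385, 2431, 3565, 5480 or 8002, and 0 to 1 at 2000 mg/kg (1 without vehicle rat 7067). No paired analysis was possible because rat numbers name single animals and no 2 groups share them.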
